A study of Mus musculus with 48 samples.

Results

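Voltage-gated calcium channels open when the membrane depolarizes and let calcium into the cell, and each channel is built around a single large pore-forming α1 subunit. The 8 α1 subunit genes examined here are Cacna1a, Cacna1b, Cacna1c, Cacna1d, Cacna1e, Cacna1g, Cacna1h and Cacna1i, found by symbol among the 24444 genes of the deposited expression table. All 8 members were in the table and all 8 passed the filter on low expression in every comparison. The other 2 α1 genes of the family, Cacna1f and Cacna1s, known from retina and skeletal muscle, lay between 2.13 and 3.99 and between 2.99 and 5.78 in the 48 mice, and were not included. Expression was followed in 48 samples from the cortex of male C57BL/6J mice, 6 WT and 6 Chd8 V986*/+ mice (HET) at each of 4 ages, E14.5, 1 month, 6 months and 12 months. HET mice carry stop codons inserted by CRISPR/Cas9 in 1 copy of Chd8, a chromatin remodeller, on a line from a single founder, and the WT mice are littermates. PolyA RNA from dissected cortex was sequenced, so each value is a mean over all cell types in the tissue, and fewer cells of a type cannot be told apart from less RNA per cell. Values are variance-stabilizing transformation (VST) expression on a log2 scale, and the floor of that scale, its most frequent value, was 2.1433.

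The α1 subunit folds into repeated domains, each with a voltage sensor and a loop that lines the pore, and a ring of acidic residues from these loops selects calcium over other ions. High-voltage-activated channels generally need stronger depolarization than low-voltage-activated channels. Among the high-voltage channels, Cav1.2 (Cacna1c) and Cav1.3 (Cacna1d) carry L-type current, which couples activity to transcription in the soma and dendrites. Cav2.1 (Cacna1a, P/Q-type) and Cav2.2 (Cacna1b, N-type) trigger transmitter release at nerve terminals, and Cav2.3 (Cacna1e) carries R-type current in terminals, dendrites and spines. Low-voltage-activated T-type channels, Cav3.1 (Cacna1g), Cav3.2 (Cacna1h) and Cav3.3 (Cacna1i), open near the resting potential and support rhythmic and burst firing. The α2δ and β subunits bind the high-voltage channels and set how many reach the membrane.

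The members are distinguished within the pore itself. In the mm9 reference with GENCODE M1 models, the coding strand of the pore loop of repeat III is shown for each member, 42 bases within a single exon, with the codon of the selectivity residue in capitals, since it separates the high-voltage genes from the T-type genes.
Cacna1a: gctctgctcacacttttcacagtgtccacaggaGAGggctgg
Cacna1b: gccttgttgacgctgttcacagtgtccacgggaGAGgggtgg
Cacna1c: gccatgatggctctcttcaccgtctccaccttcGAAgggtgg
Cacna1d: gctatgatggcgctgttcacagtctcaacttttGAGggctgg
Cacna1e: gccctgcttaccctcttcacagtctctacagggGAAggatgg
Cacna1g: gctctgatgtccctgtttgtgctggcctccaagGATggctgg
Cacna1h: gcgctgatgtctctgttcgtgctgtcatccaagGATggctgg
Cacna1i: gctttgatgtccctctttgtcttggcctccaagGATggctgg
The 5 high-voltage genes have a glutamate codon, GAG or GAA, at this place, and the 3 T-type genes have the aspartate codon GAT. Over the 42 bases, pairs of T-type genes shared 33 to 38 bases, pairs of high-voltage genes 27 to 34, and pairs across the groups 23 to 27.

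The stretches lie at chr8:87105204-87105245 on the plus strand in exon 27 of 47 for Cacna1a, at chr2:24506606-24506647 on the minus strand in exon 29 of 48 for Cacna1b, and at chr1:156292007-156292048 on the minus strand in exon 29 of 47 for Cacna1e. Those of the L-type genes are at chr6:118606136-118606177 (minus strand, exon 26 of 47) for Cacna1c and chr14:30913888-30913929 (minus strand, exon 27 of 49) for Cacna1d. The T-type stretches are at chr11:94287779-94287820 (minus strand, exon 24 of 38) for Cacna1g, chr17:25520447-25520488 (minus strand, exon 23 of 35) for Cacna1h and chr15:80207204-80207245 (plus strand, exon 24 of 37) for Cacna1i. Exon numbers refer to the annotated transcript with the longest coding sequence. The members thus lie on 8 different chromosomes. Cacna1c, Cacna1d and Cacna1h each have exonic bases within the span of a protein-coding gene on the opposite strand. These are Dcp1b for Cacna1c, Chdh and Dcp1a for Cacna1d, and Tpsg1 for Cacna1h, and Cacna1a has such bases within the noncoding Gm16183. Whether the bases are also exonic in the other gene was not examined. The libraries were stranded per the study's methods, but the strand setting of the quantification was not given in the sources used here. Reads from any bases exonic in both genes could thus not be assigned with certainty.

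RefSeq promoters in the GRCm38.p6 build, which are 300 bases long and span the transcription start, were at hand for 5 members: Cacna1b, Cacna1c, Cacna1d, Cacna1e and Cacna1i. Of these, the promoters of Cacna1i and Cacna1b are printed because their genes had the largest and the smallest rise after E14.5 among the 5. Capitals mark the GC box GGGCGG, and all motifs were searched on both strands.
Cacna1i (chr15:80286988-80287287, plus strand): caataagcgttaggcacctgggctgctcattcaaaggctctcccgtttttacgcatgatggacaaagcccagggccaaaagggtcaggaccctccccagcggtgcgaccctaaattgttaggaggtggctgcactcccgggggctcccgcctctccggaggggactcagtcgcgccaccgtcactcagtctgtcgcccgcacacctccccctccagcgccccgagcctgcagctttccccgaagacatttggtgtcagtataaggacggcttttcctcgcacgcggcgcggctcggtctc
Cacna1b (chr2:24763103-24763402, minus strand): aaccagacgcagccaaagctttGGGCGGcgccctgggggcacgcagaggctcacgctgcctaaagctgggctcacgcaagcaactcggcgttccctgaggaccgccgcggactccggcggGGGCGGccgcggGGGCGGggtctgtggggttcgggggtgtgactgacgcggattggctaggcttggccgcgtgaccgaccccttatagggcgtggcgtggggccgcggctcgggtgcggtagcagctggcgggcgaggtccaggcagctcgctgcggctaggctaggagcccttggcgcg
The Cacna1b promoter had 3 GC boxes, 72.3% G or C and 35 CpG sites, and CCAAT on the opposite strand. The Cacna1i promoter had 0 GC boxes, 62.7% G or C and 23 CpG sites. A GC box was in 35.7% of the 32851 promoters of this length, CCAAT in 37.4%, the TATA box TATAAA in 13.6% and the cAMP response element TGACGTCA in 1.79%. The median over all these promoters was 52.7% G or C and 7 CpG sites. None of these 4 motifs was in the Cacna1i or the Cacna1e promoter, nor in the Cacna1c promoter at chr6:119196360-119196659. The Cacna1c promoter at chr6:119108446-119108745 and the Cacna1d promoter at chr14:30353437-30353736 had 6 GC boxes each. A link between promoter sequence and expression was not tested. Neither the cAMP response element nor, apart from 1 of the 2 Cacna1d promoters, the TATA box was found in a member promoter.

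Chd8 expression was lower in HET mice at every age, by log2 fold-changes of −0.63, −0.67, −0.64 and −0.54 at E14.5, 1, 6 and 12 months (limma adjp = 0.026, 3e-06, 1.1e-07 and 0.0026). All 9 cortical neuron markers were well above the floor in every group. Some libraries stood apart. At E14.5, the mean of 24 midbrain, hindbrain and spinal cord markers ranged from 3.58 to 6.98 over the WT mice and from 3.72 to 5.08 over the HET mice, with 23 of 24 markers lower in HET. A fit with these markers as a covariate is given with the genotype comparison at E14.5. Because the markers themselves differed between genotypes, that fit cannot separate their part from that of the genotype. Their part in the age comparisons was not tested. At 12 months, WT replicate 6 deviated most from its group over all genes (median absolute deviation 0.107, against 0.063 for the next mouse). HET replicate 1 at E14.5 also stood apart from its group by this measure (0.095, against 0.055 for the next mouse). Read depth per gene could not be recovered from VST values, and precision is judged here from the spread over the 6 mice of a group.

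All 8 members were expressed in all 48 mice, at VST values of 8.08 or more. Because longer transcripts yield more reads, members were ranked by VST minus log2 of the kilobases of annotated exon. On this scale, Cacna1h was the highest member at E14.5, at 8.14 ± 0.10 in WT and 8.15 ± 0.20 in HET (SD, n = 6), and Cacna1i was the lowest, at 5.50 ± 0.35 in WT and 5.47 ± 0.39 in HET. In WT, Cacna1h exceeded Cacna1b (7.78 ± 0.39) by less than the larger SD. The order was different at the postnatal ages. Cacna1e ranked first in all 6 postnatal groups, between 9.24 and 9.45, Cacna1a second, between 8.81 and 9.11, and Cacna1i next, between 8.61 and 8.91. The gap between Cacna1e and Cacna1a exceeded the larger SD at 6 and 12 months in both genotypes and at 1 month in WT, but not at 1 month in HET. The gap between Cacna1a and Cacna1i did not exceed it in HET at 6 months or in WT at 12 months. Cacna1b and Cacna1c followed, and Cacna1g and Cacna1h were next, with gaps between these 2 below the larger SD in all groups at 6 and 12 months. Cacna1d was the lowest member in all 6 postnatal groups, between 7.14 and 7.38. With the longest transcript in place of all exons, Cacna1a ranked above Cacna1e in 4 of the 6 postnatal groups.

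**Figure D1:**
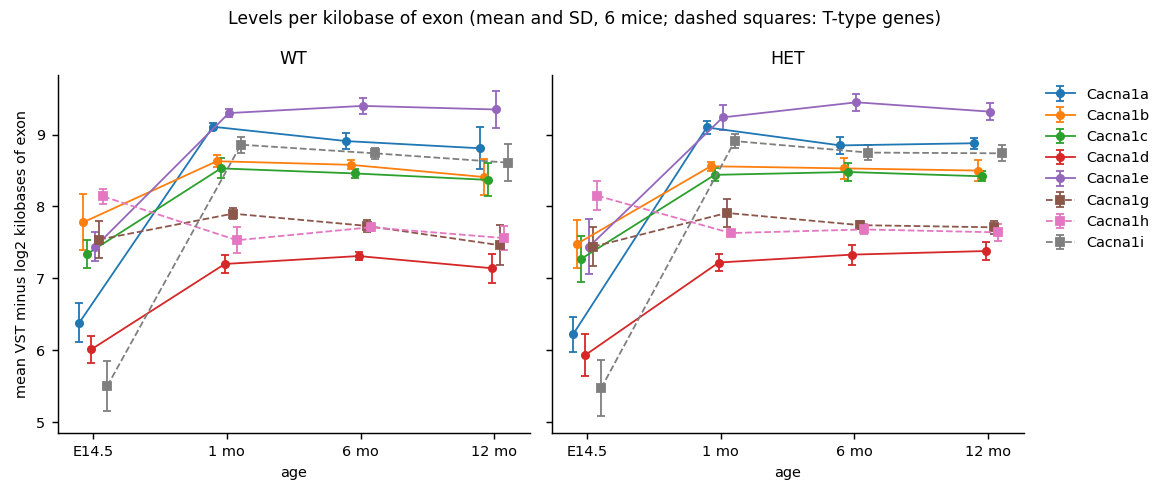
Expression of each calcium channel gene per kilobase of annotated exon (y axis, mean VST minus log2 kilobases, error bars SD over 6 mice) against age, in WT (left) and HET mice (right). Cacna1h is the top line at E14.5 and Cacna1i the bottom line, whereas Cacna1e, Cacna1a and Cacna1i are the top 3 from 1 month on.

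The first comparison asked how the members changed between the embryonic cortex and the cortex at 1 month. From E14.5 to 1 month, 7 of 8 members rose and 1, Cacna1h, fell, in WT and in HET mice alike (limma, adjp below 0.1 in each case). Cacna1i rose the most, 10.3-fold in WT and 10.8-fold in HET, and Cacna1a rose 6.65-fold and 7.32-fold. Such changes were common at this step, since 85.7% of tested genes were called in WT (43.4% higher, 42.3% lower) and 86.1% in HET (43.7% higher, 42.4% lower). The median difference of the 8 members was 1.19 in WT and 1.23 in HET on the log2 scale, beside 0.02 for all tested genes in both genotypes.

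Among the presynaptic channel genes, Cacna1a of P/Q-type channels had expression of 9.50 at the lowest, 9.99 at the median and 10.14 at the highest of the 6 WT mice at E14.5, and of 12.55, 12.62 and 12.68 at 1 month. Its HET mice ranged from 9.45 through 9.76 to 9.97 at E14.5 and from 12.50 through 12.61 to 12.72 at 1 month. Thus the 2 ages were far apart, with no overlap, and the log2 fold-change was 2.73 ± 0.10 (SE) in WT (adjp = 3.1e-13) and 2.87 ± 0.09 in HET (adjp = 2.6e-14).

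Cacna1b, the N-type gene, was higher than Cacna1a at E14.5, also per kilobase, and rose less. Its WT mice had a lowest, median and highest value of 10.59, 11.19 and 11.50 at E14.5 and of 11.85, 11.93 and 12.06 at 1 month. The HET mice had 10.23, 10.82 and 11.11, then 11.76, 11.89 and 11.92. The ages did not overlap in either genotype, and the log2 fold-change was 0.86 ± 0.14 in WT (adjp = 2.7e-05) and 1.08 ± 0.11 in HET (adjp = 2e-07).

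Cacna1e of R-type channels rose from a lowest, median and highest value of 10.81, 11.15 and 11.37 to 12.87, 12.98 and 13.04 in WT. In HET it went from 10.44, 11.12 and 11.55 to 12.70, 12.95 and 13.12. Every 1-month mouse was above every E14.5 mouse. The log2 fold-change was 1.85 ± 0.08 in WT (adjp = 2.5e-12) and 1.80 ± 0.14 in HET (adjp = 4.8e-09).

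The L-type genes rose by similar amounts. Cacna1c ranged from 10.17 through 10.47 to 10.68 in WT at E14.5 and from 11.45 through 11.68 to 11.83 at 1 month, and in HET from 9.84 through 10.43 to 10.72 and from 11.44 through 11.59 to 11.70. Its log2 fold-change was 1.2 ± 0.09 in WT (adjp = 2e-09) and 1.17 ± 0.11 in HET (adjp = 6.3e-08). Cacna1d had lower values than Cacna1c in every group, also per kilobase, with a lowest, median and highest of 8.86, 9.28 and 9.42 in WT at E14.5 and 10.30, 10.38 and 10.61 at 1 month, and of 8.78, 9.16 and 9.54 and then 10.25, 10.46 and 10.59 in HET. It rose by 1.19 ± 0.08 in WT (adjp = 1.6e-09) and 1.29 ± 0.11 in HET (adjp = 1.3e-08). The ages did not overlap for either gene in either genotype.

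The T-type genes went separate ways. Cacna1i (Cav3.3) had the lowest expression of all members at E14.5, also per kilobase, with a lowest, median and highest value of 8.33, 8.95 and 9.12 in WT and 8.08, 8.82 and 9.19 in HET, and reached 11.96, 12.19 and 12.29 in WT and 12.09, 12.19 and 12.34 in HET at 1 month. The gap between the ages was larger than in any other member, with a log2 fold-change of 3.36 ± 0.13 in WT (adjp = 7.2e-13) and 3.44 ± 0.14 in HET (adjp = 5.8e-13), and 3.43% and 3.38% of tested genes had a more positive difference.

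Cacna1h (Cav3.2) was the exception in direction. Its WT mice ranged from 11.30 through 11.48 to 11.51 at E14.5 and from 10.61 through 10.82 to 11.03 at 1 month, and its HET mice from 11.09 through 11.47 to 11.67 and from 10.86 through 10.92 to 10.97. All 1-month mice were below all E14.5 mice of the same genotype, and expression fell by 0.61 ± 0.08 on the log2 scale in WT (adjp = 1.7e-06) and by 0.53 ± 0.07 in HET (adjp = 6.1e-06).

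Cacna1g (Cav3.1) changed least. In WT its values were 10.44, 10.94 and 11.10 at the lowest, median and highest of the E14.5 mice and 11.13, 11.25 and 11.32 at 1 month, and in HET 10.23, 10.84 and 10.97 and then 10.96, 11.24 and 11.47. The ages did not overlap in WT, whereas in HET 5 of 6 mice at 1 month were above all E14.5 mice. The log2 fold-change was 0.36 ± 0.10 in WT (adjp = 0.0027) and 0.47 ± 0.11 in HET (adjp = 0.0014).

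Exact two-sided permutation tests of single members gave p = 0.0022, the smallest that 6 against 6 mice allow, in 15 of these 16 tests, and p = 0.0043 for Cacna1g in HET. For all tested genes, the share with no overlap between E14.5 and 1 month was 68.5% in WT and 69.4% in HET, beside 8 and 7 of 8 members. Markers of cell types also differed between these ages. The mean of 8 general neuronal markers went from 13.17 ± 0.15 to 13.90 ± 0.06 in WT, that of 7 progenitor markers from 12.05 ± 0.28 to 8.26 ± 0.18, that of 6 oligodendrocyte markers from 6.69 ± 0.19 to 13.98 ± 0.14 and that of 6 astrocyte markers from 8.89 ± 0.10 to 12.22 ± 0.09. In HET the corresponding means were 13.11 and 13.89, 12.16 and 8.20, 6.78 and 13.95, and 8.89 and 12.12. Their part in the changes of the channel genes was not tested.

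**Figure D2:**
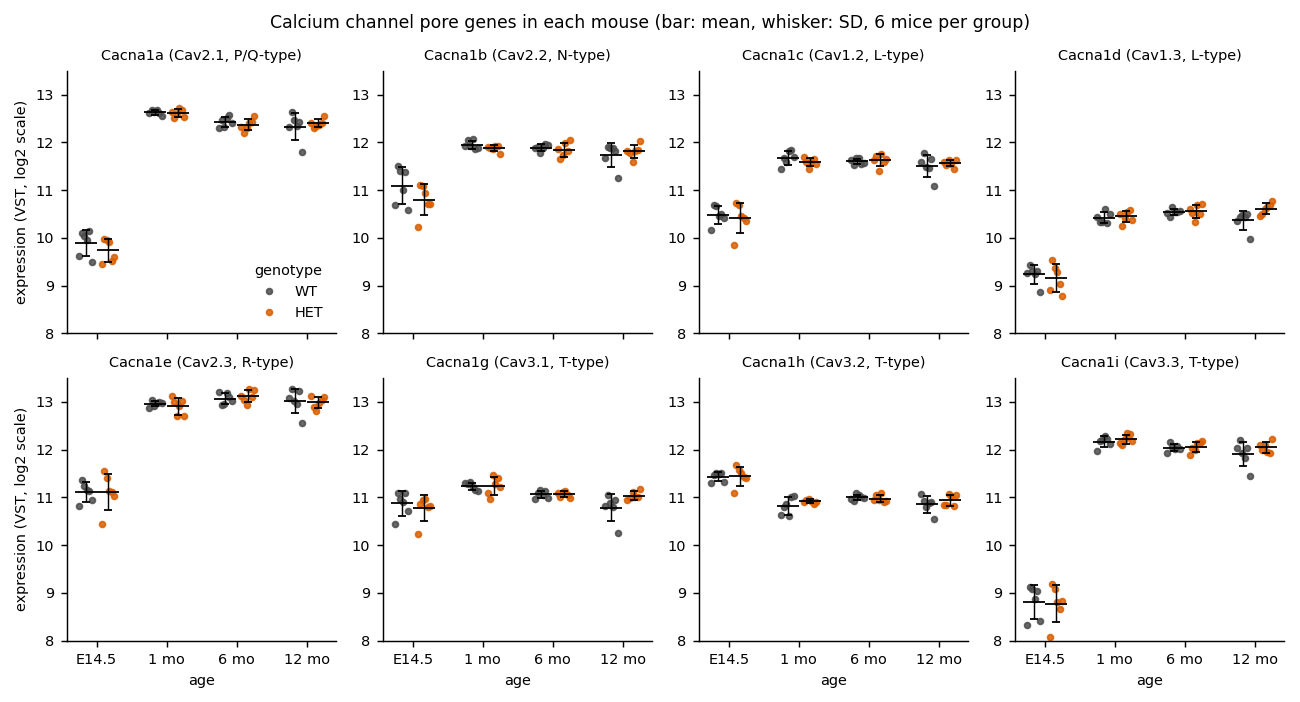
VST expression (y axis, log2 scale) of the 8 channel genes in each of 48 mice against age, with WT in grey and HET in orange, and with bars for the mean and whiskers for the SD of 6 mice. The E14.5 mice lie well below the others for Cacna1a, Cacna1e and Cacna1i, above the others for Cacna1h, and 1 WT mouse is lowest in every panel at 12 months.

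Changes between 1 and 6 months were small. In WT, Cacna1a and Cacna1g were lower and Cacna1h was higher at 6 months, 3 of 8 members beside 24.6% of all tested genes (12.3% higher and 12.3% lower). Cacna1a fell by 0.20 ± 0.05 on the log2 scale (limma adjp = 0.0068), from a range of 12.55 to 12.68 to one of 12.29 to 12.57, and 5 of 6 mice were below all 1-month mice. Cacna1g fell by 0.17 ± 0.05 (adjp = 0.017), from 11.13 to 11.32 down to 10.97 to 11.15. Cacna1h rose by 0.19 ± 0.07 (adjp = 0.064), from 10.61 to 11.03 up to 10.93 to 11.09. In HET, 4 of 8 members changed, beside 26.8% of tested genes (14% higher, 12.8% lower). Cacna1a fell by 0.24 ± 0.05 (adjp = 0.0043), Cacna1i by 0.16 ± 0.05 (adjp = 0.045) and Cacna1g by 0.17 ± 0.07 (adjp = 0.09), and Cacna1e rose by 0.21 ± 0.07 (adjp = 0.052). No member was free of overlap between the 2 ages in either genotype, where 8.47% of all tested genes were so in WT and 9.37% in HET. The fall of Cacna1a was the largest of these in relation to its SE, with exact permutation p = 0.0043 in WT and 0.0065 in HET. The calls of Cacna1h in WT and of Cacna1e and Cacna1g in HET were lost when no filter on low expression was applied (limma adjp = 0.12, 0.11 and 0.16). In a single limma fit of all 48 samples, the falls of Cacna1a and Cacna1g in WT were no longer called (adjp = 0.19 and 0.31), and in HET only Cacna1a kept its call. Between these ages, the mean of the 6 oligodendrocyte markers went from 13.98 ± 0.14 to 13.14 ± 0.06 in WT and from 13.95 ± 0.15 to 12.93 ± 0.12 in HET, while that of the 8 general neuronal markers went from 13.90 to 13.88 and from 13.89 to 13.88, and that of the 6 astrocyte markers from 12.22 to 11.99 and from 12.12 to 12.13. Their part in the changes of the channel genes was not tested.

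From 6 to 12 months, 0 of 8 members were called in WT or in HET by limma, with percentages of 0.00579 and 3.43 over all tested genes. At an unadjusted p under 0.05, there were 3 members in WT (Cacna1d, Cacna1g and Cacna1h, at −0.17, −0.28 and −0.15) and 0 in HET, beside 6.75% and 15.9% of all tested genes. All 8 WT differences were negative, and WT replicate 6, the lowest of the 12-month WT mice for all 8 members, entered each of them. Without this mouse the differences lay between −0.17 for Cacna1g and 0.04 for Cacna1e, and those of Cacna1d and Cacna1h were both −0.09.

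The later values stayed close to those of 1 month for most members. Cacna1e ranked first per kilobase of annotated exon at these ages, though not in every group with the longest transcript. Its lowest, median and highest value at 6 months was 12.94, 13.06 and 13.20 in WT and 12.94, 13.10 and 13.26 in HET. At 12 months it had 12.55, 13.05 and 13.27 in WT and 12.81, 13 and 13.12 in HET. Cacna1a had 12.29, 12.43 and 12.57 in WT and 12.20, 12.36 and 12.55 in HET at 6 months, then 11.79, 12.38 and 12.63 in WT and 12.29, 12.39 and 12.54 in HET. Cacna1i had 11.92, 12.04 and 12.15 in WT and 11.89, 12.08 and 12.17 in HET at 6 months, then 11.44, 11.98 and 12.19 in WT and 11.93, 12.04 and 12.23 in HET. All postnatal mice thus remained far above the E14.5 mice for these 3 genes. Cacna1b ranged over 11.25 to 12.04 and Cacna1c over 11.09 to 11.77 in the 24 mice of 6 and 12 months. Cacna1d ranged over 9.98 to 10.76, Cacna1g over 10.25 to 11.17 and Cacna1h over 10.54 to 11.09 in the same mice, so that Cacna1h, at its highest, met the lowest E14.5 value of 11.09.

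**Figure D3:**
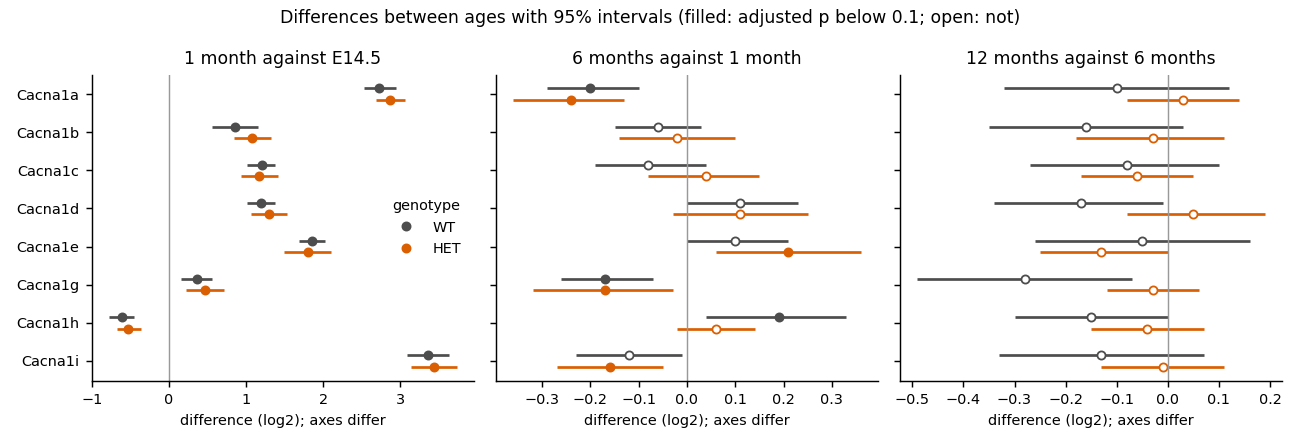
Log2 differences between successive ages (x axis, scale differs between panels) for each channel gene (y axis), in WT (grey) and HET (orange), with 95% intervals from limma. Filled points passed adjp below 0.1, and these are all 8 genes in the first panel, 3 in WT and 4 in HET in the second and 0 in the last.

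The next comparison asked whether loss of a copy of Chd8 altered the channel genes. No such change was detected for any member: 0 of 8 were called at E14.5, 1 month, 6 months or 12 months by limma, where 0.00593%, 0.139%, 0.0927% and 0.0463% of all tested genes were called. A count of 0 of 8 is thus near the background. At an unadjusted p under 0.05, the members numbered 0, 0, 0 and 2, beside 4.56%, 8.8%, 7.59% and 11.6% of all tested genes. WT and HET mice overlapped for every member at every age, while 0.261%, 0.825%, 0.527% and 0.868% of all tested genes had no overlap. The median difference of the members was −0.07, 0.00, 0.01 and 0.08 at the 4 ages, beside 0.00 for all tested genes at each age.

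At E14.5, the intervals were wide. Cacna1b differed most, by −0.30 ± 0.18 (95% interval −0.68 to 0.08, adjp = 0.98), followed by Cacna1a at −0.15 ± 0.13 (−0.43 to 0.12). With the mean of the midbrain, hindbrain and spinal cord markers as a covariate, the Cacna1b difference was −0.05 and that of Cacna1a 0.03. These markers differed between genotypes, so the fit cannot tell the 2 apart. Over the alternatives that kept all mice, this fit included, the difference ranged from −0.03 to 0.19 for Cacna1i and from 0 to 0.11 for Cacna1e. It ranged from −0.07 to 0.04 for Cacna1c, −0.08 to 0.02 for Cacna1d, −0.11 to 0.06 for Cacna1g and 0.01 to 0.08 for Cacna1h. With 1 mouse left out at a time, the difference ranged from −0.4 to −0.18 for Cacna1b and from −0.23 to −0.09 for Cacna1a. For Cacna1i it was −0.12 to 0.11, for Cacna1e −0.09 to 0.13 and for Cacna1c −0.13 to 0.05. For Cacna1d it was −0.16 to 0, for Cacna1g −0.19 to 0 and for Cacna1h −0.03 to 0.08. Within each genotype, the same mice tended to be low or high across the members: HET replicate 1 was the lowest of its group for 7 of 8 members and HET replicate 2 the highest for 7, and WT replicate 1 was the lowest for 5 and WT replicate 2 the highest for 6. At 1 and 6 months, the mice were closer together, and all 16 intervals of the difference lay within −0.21 and 0.24. The largest differences there were 0.10 ± 0.06 for Cacna1h and −0.09 ± 0.06 for Cacna1c, both at 1 month.

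At 12 months, Cacna1d and Cacna1g had the largest differences. Cacna1d, one of the L-type genes, had a lowest, median and highest value of 9.98, 10.43 and 10.50 in WT and of 10.46, 10.63 and 10.76 in HET, so that 4 of 6 HET mice were above all WT mice. The difference was 0.25 ± 0.08 (95% interval 0.07 to 0.42, limma p = 0.0087, adjp = 0.29, exact permutation p = 0.011). Cacna1g had 10.25, 10.84 and 11.04 in WT and 10.94, 11.0 and 11.17 in HET, with 2 of 6 HET mice above all WT mice and a difference of 0.25 ± 0.10 (0.04 to 0.46, limma p = 0.023, adjp = 0.35, exact permutation p = 0.024). Neither passed the adjustment over all tested genes, of which 11.6% had an unadjusted p under 0.05 at this age.

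WT replicate 6 bore on these differences. Its value was 9.98 for Cacna1d, against 10.35 to 10.50 in the other 5 WT mice, and 10.25 for Cacna1g, against 10.79 to 11.04. Without it, the difference was 0.17 for Cacna1d (exact permutation p = 0.022, limma adjp = 0.35) and 0.14 for Cacna1g (exact permutation p = 0.048, adjp = 0.41), the differences of Cacna1a, Cacna1b and Cacna1c turned from positive to slightly negative, at −0.04, −0.01 and −0.04, and that of Cacna1i went from 0.14 to 0.04. In this mouse, the mean of 8 general neuronal markers was 13.70, the lowest of its group, that of 9 cortical neuron markers 10.95, also the lowest. The means of 6 blood markers, at 8.30, 6 astrocyte markers, at 12.28, and 6 microglia markers, at 10.46, were the highest of its group. That of 8 ganglionic eminence and interneuron markers, at 9.06, was also the highest. The mean of 6 endothelium and mural cell markers, at 9.77, was the lowest. The part of these in the values of the mouse was not tested.

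**Figure D4:**
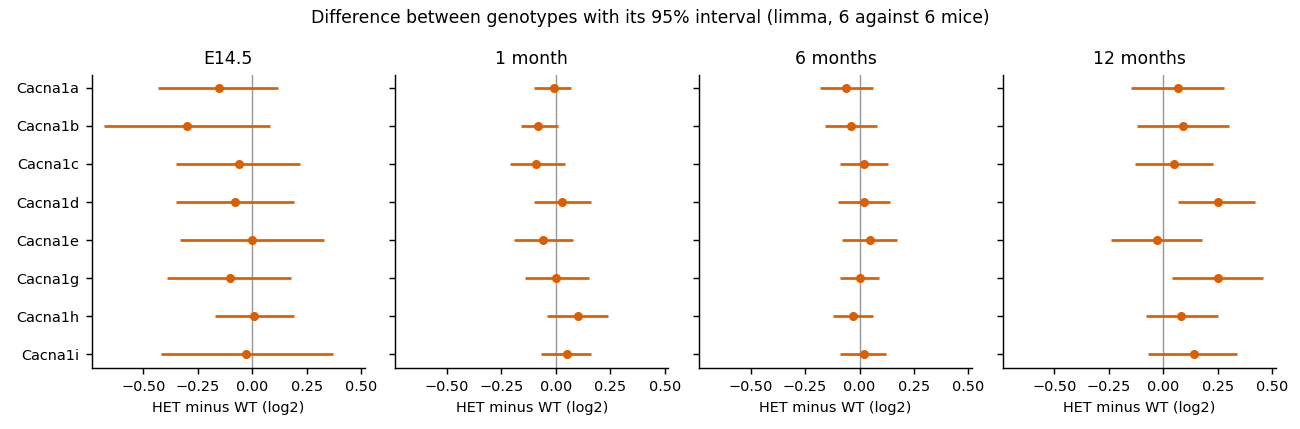
HET minus WT differences (x axis, log2) of the 8 channel genes (y axis) at each age, with 95% intervals from limma over 6 against 6 mice. Intervals are widest at E14.5 and narrowest at 1 and 6 months, and those that leave out 0 are the intervals of Cacna1d and Cacna1g at 12 months, neither of which passed the adjustment over all genes.

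Whether the difference between genotypes changed with age was tested in a limma fit of all 48 mice. From E14.5 to 1, 6 and 12 months, 0 of 8 members were called, where 0%, 0% and 0.0635% of all tested genes were called. At an unadjusted p under 0.05, there were 0, 0 and 3 members, beside 4.6%, 5.08% and 11.5% of all tested genes, the 3 at 12 months being Cacna1b with a change of 0.39 ± 0.17, Cacna1d with 0.32 ± 0.13 and Cacna1g with 0.36 ± 0.14 (adjp = 0.36, 0.33 and 0.33). Without WT replicate 6 of E14.5, Cacna1b and Cacna1d passed, at 0.49 (adjp = 0.098) and 0.40 (adjp = 0.086). Without WT replicate 6 of 12 months, the changes were 0.29 for Cacna1b, 0.25 for Cacna1d and 0.25 for Cacna1g, with adjp between 0.60 and 0.63. The values from E14.5 share the same 12 mice and are thus not independent of each other.

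Members were also compared with each other within each mouse. Lengths of genes enter the level of such a difference but not its change between ages. P/Q-type Cacna1a minus N-type Cacna1b went from −1.2 ± 0.15 at E14.5 to 0.68 ± 0.05 at 1 month in WT (SD, n = 6) and from −1.06 ± 0.15 to 0.74 ± 0.06 in HET, so that it was negative in every E14.5 mouse and positive in every older mouse. Over the postnatal mice it stayed between 0.40 and 0.80. Within the L-type pair, Cacna1c minus Cacna1d was 1.25 ± 0.21 at E14.5 and 1.25 ± 0.17 at 1 month in WT, and 1.26 ± 0.22 and 1.14 ± 0.12 in HET, with overlap at every step. Between the T-type genes, Cacna1g minus Cacna1h went from −0.56 ± 0.17 to 0.41 ± 0.24 in WT and from −0.67 ± 0.13 to 0.32 ± 0.19 in HET, and came back to 0.06 ± 0.08 and 0.09 ± 0.08 at 6 months. Cacna1i minus Cacna1h went from −2.63 ± 0.26 to 1.35 ± 0.20 in WT and from −2.67 ± 0.20 to 1.3 ± 0.12 in HET. WT and HET mice overlapped in all 4 differences at all ages, and the largest shift between genotypes was −0.20, for Cacna1c minus Cacna1d at 12 months.

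**Figure D5:**
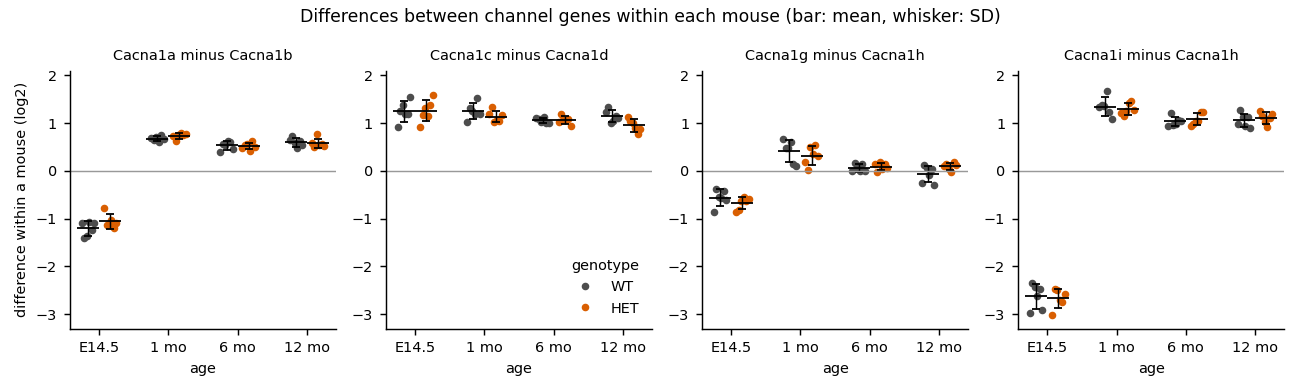
Differences between pairs of channel genes within each mouse (y axis, log2) against age, in WT (grey) and HET (orange), with bars for the mean and whiskers for the SD of 6 mice. Between E14.5 and 1 month the difference crosses 0 for Cacna1a minus Cacna1b, Cacna1g minus Cacna1h and Cacna1i minus Cacna1h and holds its level for Cacna1c minus Cacna1d.

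The order of the 8 groups by mean expression was set mostly by the step from E14.5. For Cacna1b, Cacna1c, Cacna1d, Cacna1e and Cacna1i, the 6 postnatal groups formed a series in which no neighbours differed by more than the larger of their SDs, and the WT and HET groups of E14.5 came last. Cacna1a was highest at 1 month, at 12.62 in WT and 12.61 in HET, and the next group, WT at 6 months, was lower by 0.18, more than the larger SD. For Cacna1g, both 1-month groups led at 11.23, and the E14.5 groups, at 10.87 in WT and 10.77 in HET, lay next to WT at 12 months, at 10.78. For Cacna1h, the E14.5 groups led at 11.44 in HET and 11.43 in WT, followed by WT at 6 months at 11.0. The spread among mice was largest at E14.5 and in WT at 12 months, where the median SD of the members was 0.23 in WT E14.5, 0.30 in HET E14.5 and 0.25 in WT 12 months, against 0.07 to 0.12 in the other groups. For all tested genes, the median SD was also largest in these groups, at 0.18 in WT E14.5, 0.17 in HET E14.5 and 0.18 in WT 12 months. In the other groups it was 0.12 or 0.13.

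The genes most like each member over the 48 samples were found by Pearson correlation among 17311 genes, as a description, since all samples of an age share their age. They were Atp6v0a1, Rab6b and Gabbr2 for Cacna1a (r = 0.998, 0.997 and 0.997), Rnf157 and Kcnma1 for Cacna1i (0.996 and 0.996), and Pclo, Peak1 and Bsn for Cacna1e (0.994, 0.991 and 0.991). Pclo and Bsn encode piccolo and bassoon, scaffolds of the active zone where vesicles are released, and Kcnma1 encodes a potassium channel. For Cacna1c they were Ank2, Grin2b and Tnr (0.987, 0.987 and 0.983), for Cacna1d Slc6a7, Dmxl2 and Dock3 (0.980, 0.980 and 0.979), and for Cacna1b Rab3c, Ksr2 and Drp2 (0.978, 0.975 and 0.973). The patterns of the remaining 2 members were less common in the table. Cacna1h had Pik3c2b, Celsr3 and Zcchc14 (0.925, 0.924 and 0.922), and Cacna1g had Sdk2, Mgat5 and Unc79 (0.884, 0.877 and 0.861). The number of genes with r over 0.95 was 2765 for Cacna1i, 2734 for Cacna1a, 48 for Cacna1b and 0 for Cacna1g and Cacna1h. Among the members themselves, r of Cacna1h with the others was between −0.83 with Cacna1a and −0.20 with Cacna1g.

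Genes that work with the channels were followed in 9 lists of 57 genes in all. Of these, 48 rose and 6 fell from E14.5 to 1 month in WT, and likewise 48 and 6 in HET, with a median difference of 1.77 and 1.76, beside 0.02 for all tested genes. The share called was 94.7% of the 57 genes in both genotypes, beside 85.7% of all tested genes in WT and 86.1% in HET. All 4 β subunit genes rose in WT, led by Cacnb4 (3.57 ± 0.08) and Cacnb2 (2.5 ± 0.10), as did 3 of 4 α2δ genes, with Cacna2d4 at 2.81 ± 0.15 and Cacna2d3 at 2.04 ± 0.13, whereas Cacna2d2 fell by 0.66 ± 0.13. Among 8 γ subunit and TARP genes, whose proteins mostly serve AMPA receptors, 6 rose, with Cacng3 at 4.05 ± 0.16, and Cacng4 and Cacng1 fell by 2.18 ± 0.10 and 1.16 ± 0.24. Of the 4 RGK GTPases, which inhibit high-voltage channels, Rem1 and Rrad rose, at 1.07 ± 0.15 and 0.45 ± 0.18, and Rem2 fell by 1.27 ± 0.15 in WT. In HET, Rem1 rose by 0.78 ± 0.21 and Rem2 fell by 0.76 ± 0.09, while Rrad was not called (0.13 ± 0.15, limma adjp = 0.44).

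Of 11 organisers and partners of the channels, 9 rose, led by Rims1 (3.77 ± 0.17) and Stac2 (3.74 ± 0.08), and Erc1 and Stac fell by 0.89 ± 0.12 and 0.76 ± 0.13. All 9 calcium pumps and exchangers rose, with Atp2b2, a pump of the plasma membrane, at 4.03 ± 0.07, and so did all 8 calmodulin and kinase genes, with Camk2a at 6.57 ± 0.07. Of 6 intracellular release channels, 5 rose, among them Itpr1 (4.35 ± 0.08) and Ryr2 (4.05 ± 0.15). The remaining list held pore genes that are not members, and in it Nalcn, a sodium leak channel, rose by 2.01 ± 0.11 and Cacna1s by 1.29 ± 0.23. The counts and differences from Rims1 to Cacna1s are those of WT. The adjp of the genes named as having risen or fallen was at most 0.028 for each.

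From 1 to 6 months, 12 of the 57 genes rose and 13 fell in WT, and 10 rose and 17 fell in HET, which is 43.9% and 47.4% of the list beside 24.6% and 26.8% of all tested genes. The median difference of the 57 genes was −0.03 in WT and 0.01 in HET, beside 0.01 for all tested genes. The release channel gene Itpr1 rose by 0.48 ± 0.06 in WT and 0.43 ± 0.05 in HET, and Ryr2 by 0.26 ± 0.05 and 0.29 ± 0.08. Of the 11 organisers and partners, 2 rose and 5 fell in WT, and 3 rose and 6 fell in HET. Those that fell included Rims1 at −0.40 ± 0.08 in WT and −0.33 ± 0.06 in HET and Erc1 at −0.40 ± 0.05 and −0.31 ± 0.05, and those that rose included Stac2 at 0.36 ± 0.07 and 0.29 ± 0.09. From 6 to 12 months, 0 of 57 were called in WT, and in HET Gem and Erc1 fell by 1.06 ± 0.19 and 0.20 ± 0.04. These 2 genes are 3.51% of the list, near the 3.43% of all tested genes called in HET at this step, and in WT 0.00579% of all tested genes were called. None of the 57 genes was called between WT and HET at any of the 4 ages by limma, where 0.00593%, 0.139%, 0.0927% and 0.0463% of all tested genes were called and a count of 0 is thus near the background.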

How the data were processed

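Stranded polyA libraries of dissected cortex from 48 mice were sequenced. The authors aligned reads to mm9 with STAR 2.5.2b, quantified transcripts with Salmon 0.11.3 and used DESeq2 1.22.2. The deposited table holds VST values on a log2 scale for 24444 genes, with 15.7% of values at the floor. For every gene, the mean of replicates 1 to 3 equalled that of replicates 4 to 6 within 3.2e-14, so the deposited values carry an adjustment. The authors corrected for batch in their differential expression model, but whether that gave this adjustment, and what the batch was, is not given in the sources used here. Residual degrees of freedom were not reduced for it. Reads per gene are unknown.

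Groups were compared with limma 3.58.1 (R 4.3.3, intensity trend) over all genes with a mean at least 0.5 above the floor, within the 12 mice compared or, for changes with age of the genotype difference, in all 48, with Benjamini-Hochberg adjustment (adjp) over all genes tested and a threshold of 0.1. Scripts were tested on simulated data. Single members were also compared by exact two-sided permutation tests (80 in all, p not adjusted, smallest possible p 0.0022). Fold-changes were computed from VST differences. The alternatives varied filter, scaling, variance prior, threshold, samples and covariates. All 8 members were described, with the 3 best correlates of each (1 is not reported here) and at most 3 called genes per list and direction. The members and lists were chosen with earlier results of these data known.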

Additional observations from a re-analysis of the deposited data

Results flagged for a closer look

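In 5 of the 64 sets of 6 mice (8 genes in 8 groups), a single mouse lay farther from the rest than the 95% critical value of Dixon's test allows, and chance alone gives about 1 such set in 20. WT replicate 6 at 12 months was low for 3 genes, with 11.25 for Cacna1b against 11.66 to 11.90 in the other 5 mice, 9.98 for Cacna1d against 10.35 to 10.50, and 10.25 for Cacna1g against 10.79 to 11.04. At E14.5, WT replicate 6 had 8.86 for Cacna1d against 9.25 to 9.42, and HET replicate 1 had 10.23 for Cacna1g against 10.80 to 10.97. All 5 values were the lowest of their group.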

How the results depend on the processing

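The called age differences kept their direction in all 483 recomputations and lost their call in 34, all between 1 and 6 months. There, the count of members higher in WT was 1, and 0 without the filter, without the intensity trend and at adjp below 0.05. It ranged from 0 to 3 when a mouse was left out (0 without WT replicate 1 or 2 at 1 month or replicate 4 at 6 months, 3 without replicate 2 at 6 months). The 2 members lower in WT became 0 in 1 fit of all 48 samples, and ranged from 2 to 3 without a mouse. In HET, the 1 member higher became 0 under those same 3 settings and in 1 fit of all 48, and ranged from 0 to 2 without a mouse (0 without replicate 3 or 6 at 1 month or 4 or 6 at 6 months, 2 without replicate 3 at 6 months). The 3 members lower became 1 in 1 fit of all 48, and ranged from 1 to 3 without a mouse (1 without replicate 4 or 5 at 1 month or 1 at 6 months). The count for the change of the genotype difference from E14.5 to 12 months ranged from 0 to 2 (2 without WT replicate 6 at E14.5). With only the 4 groups of that contrast, a setting chosen after seeing the data, it stayed at 0 (Cacna1b, Cacna1d and Cacna1g at limma adjp = 0.66, 0.63 and 0.63). With lengths of the longest transcript, 4 of 8 members kept their rank in HET at E14.5, 1 and 12 months and in WT at 1 and 6 months. Causes were not tested. No genotype difference became called in 736 recomputations. No source says what a replicate number marks, and not every same-numbered pair correlated by over 0.1 in any comparison, so no pairing was assumed. At E14.5 their deviations correlated by 0.23 on average between genotypes, 0.01 at the lowest, and 4 of 6 correlated best with their own number. With the replicate number as a block, 1 of 123 results changed its call (Cacna1i from 1 to 6 months in WT, −0.12, limma adjp = 0.032).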
